A study of Homo sapiens with 9 samples.

Results

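The 9 genes described here encode components of the machinery by which epithelial cells hold on to the basement membrane: 2 chains of laminin-332 (LAMA3 and LAMB3), the hemidesmosome collagen COL17A1 and 6 integrin subunits (ITGA6, ITGB4, ITGA2, ITGA3, ITGB1 and ITGB6). They were chosen by name, and all 9 were found among the 26869 genes of the table. The libraries came from MCF10A, a mammary epithelial line that is human and not transformed. These cells lacked endogenous JUN and carried a JUN-AID fusion protein (JUN-AID-V5 in the study's methods) together with TIR1, the plant F-box protein that directs AID-tagged proteins to degradation in the presence of auxin, here indole-3-acetic acid (IAA). According to the study's methods the fusion came from a lentiviral vector with the EF1a promoter and not from the JUN locus, and this background was shared by every group. The no 4sU group, for which no DMSO is named in the sample labels, received no 4-thiouridine (4sU). The DMSO 4sU group received DMSO and then 100 µM 4sU for 1 h, and the IAA 4sU group received 100 µM IAA for 1 h before the same pulse of 100 µM 4sU for 1 h. Each group has 3 samples in the labels, which do not say whether they came from separate cultures. The study's figure legend for the comparison of JUN depletion gives n = 3 and calls them biological replicates. The p-values here measure the spread between the samples of each group.

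In SLAM-Seq, 4sU is built into the RNA made during the pulse and is read as C in place of T after alkylation with iodoacetamide. The T>C conversion rate is the percentage of T positions read as C. It rises with the share of a gene's mRNA that is new. This share depends on synthesis relative to the mRNA already present, so a rate alone does not tell synthesis from turnover. The reads of the 3′ interval count all mRNA of the gene, new and old. Reads are given as deposited, in CPM, and one read was taken near the 3′ end of each transcript, so that levels do not scale with transcript length. Library totals ran from 18997637 to 24014195 reads. The 3 IAA columns were identical in all 56868 rows and were counted as 1 library, which has no replicate and allows no test.

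Laminin-332 is the main laminin of the epithelial basement membrane, a trimer whose α3 and β3 chains are encoded by LAMA3 and LAMB3. It is bound by integrin α6β4, which together with type XVII collagen forms the transmembrane core of the hemidesmosome and is anchored through plectin and the bullous pemphigoid antigen to keratin filaments. Integrin α3β1 binds the same laminin in focal adhesions, α2β1 is a collagen receptor, and αvβ6, an epithelial integrin, activates latent TGF-β. JUN is a subunit of AP-1, which binds TGANTCA.

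In GRCh37, with GENCODE genes, LAMB3 lies on chr1:209788215-209825770 (minus strand) and LAMA3 on chr18:21269417-21536186 (plus strand). COL17A1 lies on chr10:105791044-105845638 (minus strand), ITGA6 on chr2:173292082-173371187 (plus strand) and ITGB4 on chr17:73717408-73753899 (plus strand). ITGA2 lies on chr5:52285170-52390609 (plus strand), ITGA3 on chr17:48133332-48167845 (plus strand), ITGB1 on chr10:33176201-33294720 (minus strand) and ITGB6 on chr2:160956178-161056824 (minus strand). The table gives interval lengths and no coordinates. For the interval with most reads of each gene, the annotated 3′ UTR block nearest in length differed by 0 to 6 bases in 8 genes and by 78 bases in ITGA2. The last 250 bases of the ITGB1 block held a stretch of 171 bases that is present without mismatch on chr19:14733930-14734100, and a stretch of 80 bases matched chr12:123007703-123007782 at 78 bases. Reads of ITGB1 could be divided between these places, and its values are uncertain. The ends of the other 8 genes gave no second match.

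Promoter windows of 250 bases before and 50 bases after annotated starts (RefSeq, GRCh38.p14) were at hand for 7 of the 9 genes, all but ITGB4 and ITGA3, with 11 windows in all. TGANTCA, which reads as the same motif on both strands, was present in a window of 2 genes, LAMA3 and LAMB3. It was found in 7.71% of all 35116 windows, and in at least 1 window of 9.37% of 27305 genes. These stretches are shown because JUN is the protein removed in the IAA group, and capitals mark TGANTCA. The LAMA3 stretch, chr18:23872865-23872987 (plus strand), holds the motif 125 and 69 bases before the start. The LAMB3 stretch, chr1:209651405-209651471 (minus strand), holds it 67 bases before one of 3 annotated starts, and the windows of the other 2 starts did not hold it.
LAMA3: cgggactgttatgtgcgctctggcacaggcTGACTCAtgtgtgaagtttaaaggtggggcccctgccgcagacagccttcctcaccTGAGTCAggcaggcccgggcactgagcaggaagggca
LAMB3: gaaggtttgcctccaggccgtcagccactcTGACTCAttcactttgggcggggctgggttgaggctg
GGAATG on either strand, the core of the motif bound by TEAD factors, was present in 1 of the 11 windows, in ITGB1, against 14.0% of all windows. A match is a sequence description and does not show that a factor was bound in these cells.

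The 4sU pulse left its largest mark among the 9 genes on LAMB3, the β3 chain of laminin-332. In the interval with most reads, the LAMB3 conversion rate was 0.0525%, 0.0514% and 0.0748% without 4sU and 1.10%, 0.920% and 0.741% with DMSO and 4sU. The groups lay far apart, and the mean rate was 15.4-fold higher with 4sU (0.919% ± 0.178 against 0.0596% ± 0.0132, SD, n = 3). On the log2(rate + 0.0005) scale the difference was 3.14 (95% interval 2.35 to 3.92, limma, adjusted p = 0.00168). These rates rested on 16154 to 47748 reads per library. Among the 7032 genes with at least 200 reads on average with DMSO and 4sU, 96.3% had a lower mean rate than LAMB3, and their median rate was 0.204%.

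LAMA3, which encodes another chain of the same trimer, carried less label. Its rate was 0.0451%, 0.0487% and 0.0425% without 4sU and 0.178%, 0.138% and 0.105% with DMSO and 4sU. All labelled libraries lay above all unlabelled ones, and the mean rate was 3.09-fold higher. Within each library, the LAMB3 rate was 6.15, 6.68 and 7.03 times that of LAMA3 with DMSO and 4sU, and 1.16, 1.05 and 1.76 times without 4sU, so that the ranges did not overlap.

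The labelled rates of COL17A1, ITGA6 and ITGB4, the hemidesmosome genes among the 9, lay below that of the median gene (0.204%). Those of LAMA3, ITGA2, ITGB1 and ITGB6 did too. COL17A1, type XVII collagen, had the lowest labelled rate of the 9 genes, with 0.0798%, 0.0326% and 0.0492% without 4sU and 0.0695%, 0.0559% and 0.0676% with DMSO and 4sU. The groups overlapped, and the log2 difference was 0.16 (95% interval -0.52 to 0.84, limma, adjusted p = 0.631). ITGA6, the α6 subunit, had 0.0668%, 0.0562% and 0.0648% without 4sU and 0.140%, 0.0932% and 0.116% with DMSO and 4sU. ITGB4, its β4 partner in the hemidesmosome, had 0.113%, 0.0516% and 0.0783% without 4sU and 0.224%, 0.170% and 0.154% with DMSO and 4sU. The ranges of ITGA6 and of ITGB4 did not overlap between the groups, with mean rates 1.86-fold and 2.25-fold higher with 4sU.

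Among the other integrin subunits, ITGA2, the α2 subunit of the collagen receptor, rose in each labelled library, from 0.0268%, 0.0601% and 0.0499% without 4sU to 0.212%, 0.163% and 0.129% with DMSO and 4sU. Its log2 difference was 1.19 (95% interval 0.53 to 1.85, limma, adjusted p = 0.0152). ITGB1, the β1 subunit shared by α2β1 and α3β1, had 0.0477%, 0.0341% and 0.0658% without 4sU and 0.120%, 0.160% and 0.174% with DMSO and 4sU, from only 197 to 772 reads per library. With the rates of its intervals averaged, the log2 difference was 0.87 (95% interval 0.24 to 1.49, limma, adjusted p = 0.0342). With the interval with most reads, whose rates are given here, it was 1.02 (95% interval 0.43 to 1.62, limma, adjusted p = 0.0166).
ITGA3, the α3 subunit of the laminin receptor α3β1, stood out by its rate without 4sU. This was 0.254%, 0.233% and 0.193%, above the unlabelled rate of each of the other 8 genes in every library, and it was 0.411%, 0.347% and 0.318% with DMSO and 4sU. ITGB6, the epithelial β6 subunit, had 0.0547%, 0.0509% and 0.0489% without 4sU and 0.107%, 0.0600% and 0.0914% with DMSO and 4sU. In both genes the groups did not overlap, with mean rates 1.58-fold and 1.67-fold higher. Neither passed the test with intervals averaged (limma, adjusted p = 0.146 for ITGA3 and 0.215 for ITGB6) or with the interval with most reads (0.16 and 0.229).

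**Figure D1:**
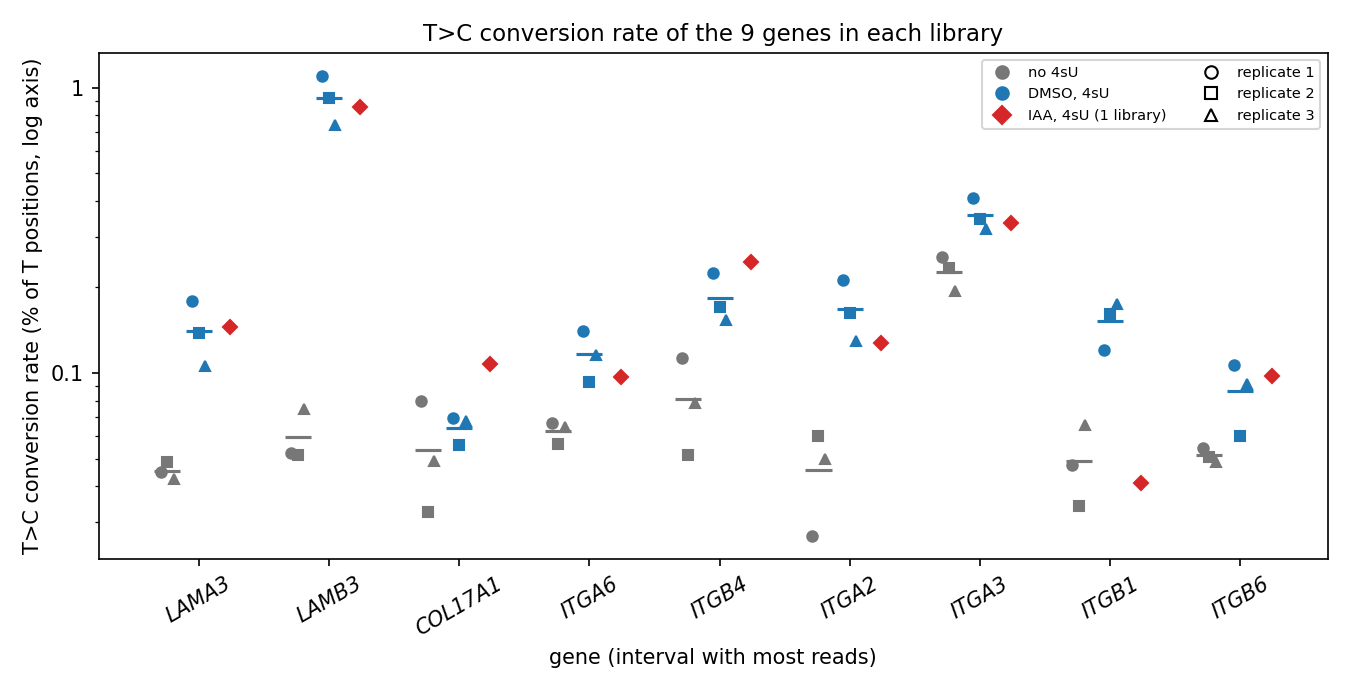
T>C conversion rate (% of T positions, log axis) of the 9 genes in each library, from the interval with most reads. Points are single libraries, horizontal bars are group means, and the IAA group is 1 library. LAMB3 with 4sU lies between 0.741% and 1.10%, above all other genes, and ITGA3 is the gene with the highest rate without 4sU.

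With the rates of a gene's intervals averaged, the conversion rate rose with 4sU in 3 of the 9 genes (LAMB3, ITGA2 and ITGB1), that is, below the 48.6% of all 10895 genes tested. The median log2 difference was 0.564 over the 9 genes and 1.27 over all genes. The average includes nearly empty intervals that are listed at a rate of 0, such as 2 intervals of LAMA3 with at most 7 reads in any library. With the interval with most reads alone, 5 of the 9 genes passed (LAMA3 and ITGB4 in addition), against 50.5% of 10853 genes. LAMA3 then differed by 0.98 (adjusted p = 0.0182) in place of 0.56 (adjusted p = 0.0872), and ITGB4 by 0.84 with adjusted p = 0.0484 in place of 0.0521 (limma). In 8 of the 9 genes, all but COL17A1, the 3 labelled rates lay above the 3 unlabelled ones, as they did in 72.7% of the 7008 genes with at least 200 reads on average. Without replicate 1, 2 or 3 of both groups, ITGA2 (adjusted p = 0.0632 to 0.0797) and ITGB1 (0.0876 to 0.167) no longer passed, and LAMB3 did (0.022 to 0.0302). With the replicate number as a block, ITGB1 no longer passed (adjusted p = 0.0816, limma).

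**Figure D2:**
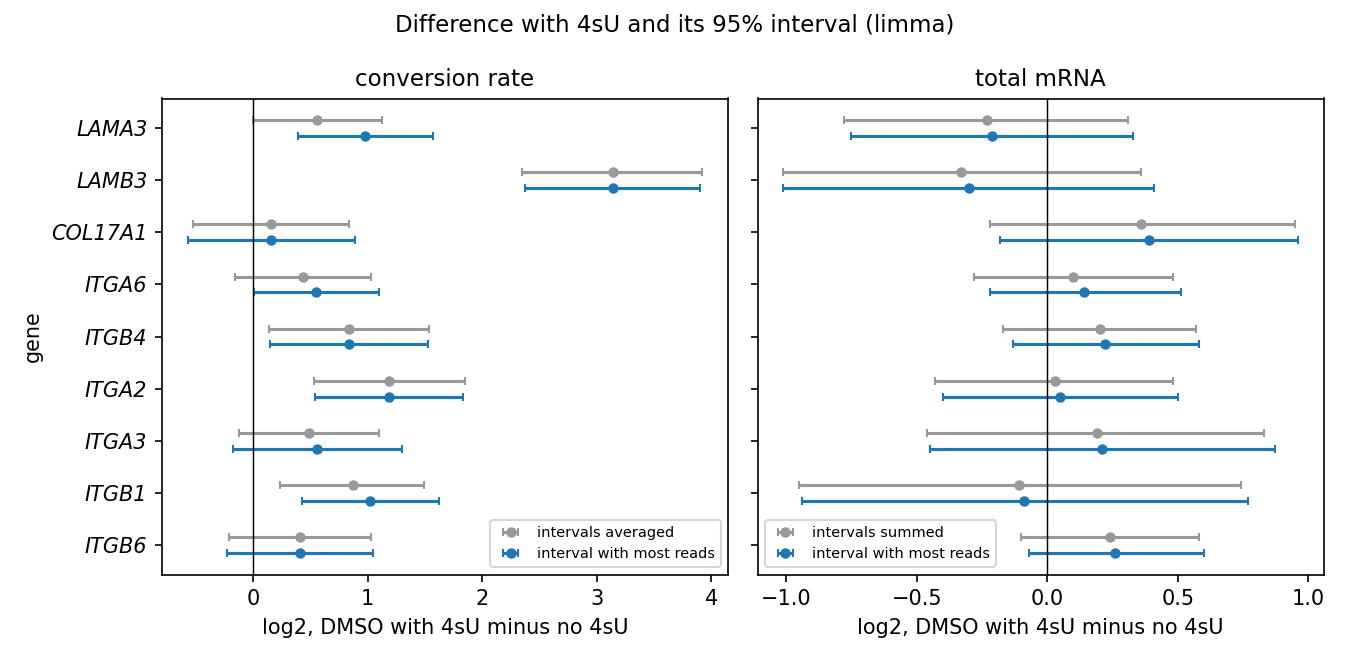
Differences between DMSO with 4sU and no 4sU (log2, x axis) for each of the 9 genes, in the conversion rate (left) and total mRNA (right), with 95% intervals from limma. Grey points average or sum a gene's intervals and blue points use the interval with most reads. In the rate, LAMB3 lies apart at 3.14, and in total mRNA every interval shown, without the replicate block, includes 0.

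Ordered by the mean rate with DMSO and 4sU, LAMB3 (0.919%) came first, followed by ITGA3 (0.359%), ITGB4 (0.182%), ITGA2 (0.168%), ITGB1 (0.152%), LAMA3 (0.140%), ITGA6 (0.116%), ITGB6 (0.0861%) and COL17A1 (0.0644%). LAMB3 did not overlap with ITGA3, nor ITGA3 with ITGB4, whereas from ITGB4 on each gene overlapped with the next. After subtraction of the mean rate without 4sU, LAMB3 kept 0.860% and ITGA3 0.132%, close to ITGA2 with 0.122%. The lower end of the order was low also among all genes, since 5.86% of the 7032 genes had a lower labelled rate than ITGB6 and 2.01% a lower rate than COL17A1. Of the 9 genes, LAMB3 and ITGA3 had a labelled rate above that of the median gene. After subtraction of the rate without 4sU, LAMB3 alone did, since the median gene kept 0.137% and 48.3% of genes kept less than ITGA3. ATTTA, the core of AU-rich elements that can destabilise mRNA, was absent from the annotated 3′ UTR blocks of LAMB3, ITGB4 and COL17A1, present once in LAMA3 and ITGA3, and present 6 times in ITGB1 and in ITGB6, 8 times in ITGA6 and 15 times in ITGA2. Of 3′ UTR blocks of like length, 39.4% held it for LAMB3, 27.6% for ITGB4, 70.4% for COL17A1, 41.6% for LAMA3 and 80.8% for ITGA3. As many copies or more were present in 13.6% of like blocks for ITGB1, 34.1% for ITGB6, 26.2% for ITGA6 and 19.6% for ITGA2.

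In total mRNA, none of the 9 genes passed the test between DMSO with 4sU and no 4sU (limma on log2(CPM + 1), adjusted p = 0.696 to 0.982; 0 genes at an unadjusted p under 0.05). Of all 11528 genes tested, 1.8% were called, all of them lower with 4sU. edgeR and DESeq2 on the recovered reads likewise called 0 of the 9. With the replicate block, which pairs the libraries in total mRNA, the lowest adjusted p of the 9 was 0.328 (COL17A1). The limma differences are with intervals summed, and the CPM below are from the interval with most reads.

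LAMB3 had 2360.3, 1021 and 850.3 CPM without 4sU and 1243, 1030.3 and 929 CPM with DMSO and 4sU. Replicate 1 without 4sU stood far above the others, and the 4sU difference was -0.33 with all replicates (95% interval -1.01 to 0.36) and -0.04 without replicate 1. LAMA3 had 351, 347 and 357 CPM without 4sU, nearly equal, and 209, 400.4 and 364 CPM with DMSO and 4sU, where replicate 1 was the low one. Its difference of -0.23 turned to 0.01 without replicate 1.
COL17A1 had 55.0, 96.1 and 93.4 CPM without 4sU and 88.9, 122 and 112 CPM with DMSO and 4sU, so that replicate 1 was the lowest library of each group. ITGA6 had 242, 260.0 and 275 CPM without 4sU and 264, 315 and 304 CPM with DMSO and 4sU. The log2 differences were 0.36 (95% interval -0.22 to 0.95) for COL17A1 and 0.10 (-0.28 to 0.48) for ITGA6. COL17A1 was higher with 4sU in each of the 3 pairs of equal replicate number (by 0.72, 0.25 and 0.13), and with the replicate block its 95% interval was 0.01 to 0.72, with an adjusted p of 0.328 (limma).
ITGB4 had 112, 139 and 125 CPM without 4sU and 152, 154 and 144 CPM with DMSO and 4sU. ITGB6 had 200.4, 173 and 198 CPM without 4sU and 248, 219 and 239 CPM with DMSO and 4sU. In these 2 genes the labelled libraries lay above the unlabelled ones, by 0.20 and 0.24 on the log2 scale, which 19.5% of all genes also showed as a lack of overlap in one direction or the other. The summed CPM of 8 epithelial markers moved the same way, with 1050 to 1250 without 4sU and 1360 to 1400 with DMSO and 4sU. Of the 8 markers, 0 passed the test in total mRNA (limma), and their median log2 difference was 0.129. The part of this sum in the values of ITGB4 and ITGB6 was not tested.
ITGA2 had 281, 207 and 287 CPM without 4sU and 312, 218 and 298 CPM with DMSO and 4sU, with replicate 2 the lowest in both groups. ITGA3 had 81.9, 44.1 and 47.5 CPM without 4sU and 99.4, 45.6 and 64.1 CPM with DMSO and 4sU, with replicate 1 the highest in both groups. ITGB1 was the least read of the 9, with 38.2, 11.6 and 10.4 CPM without 4sU and 19.1, 14.7 and 15.0 CPM with DMSO and 4sU. The differences of ITGA2 and ITGB1 changed sign without replicate 1, from 0.03 to -0.05 and from -0.11 to 0.32.

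**Figure D3:**
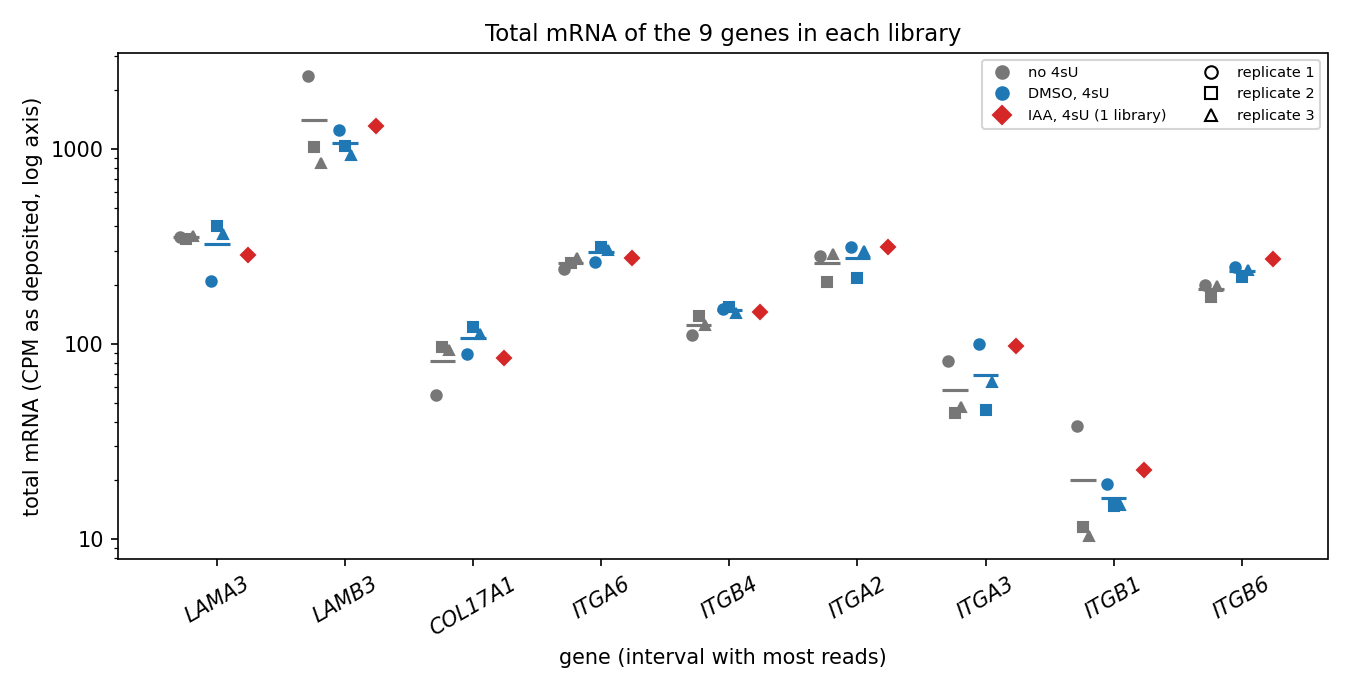
Total mRNA (CPM as deposited, log axis) of the 9 genes in each library, from the interval with most reads. Points are single libraries, horizontal bars are group means, and the IAA group is 1 library. Replicate 1 (circles) lies apart from replicates 2 and 3 for LAMB3, COL17A1, ITGA3 and ITGB1 without 4sU, and for LAMA3 and ITGA3 with DMSO and 4sU.

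Several of the 9 genes thus differed between replicate numbers. On the log2 scale, replicate 1 lay 0.66 above the mean of replicates 2 and 3 for ITGA3 without 4sU and 0.85 above it with DMSO and 4sU. For COL17A1 it lay 0.94 below that mean without 4sU and 0.41 below it with DMSO and 4sU. For LAMB3 it lay 1.17 and 0.33 above. The IAA library lay nearest to replicate 1 of the DMSO libraries with 4sU in 7 of the 9 genes. It did so in 58.8% of 5066 genes with a mean of at least 20 CPM. The median distance over the 9 genes was 0.0883 log2 units to replicate 1, 0.452 to replicate 2 and 0.401 to replicate 3. Over the 5066 genes it was 0.102, 0.245 and 0.19. ITGA3, for instance, had 97.6 CPM in the IAA library and 99.4 in replicate 1, and COL17A1 84.8 and 88.9. The part of this likeness in the comparison of IAA with DMSO was not tested.

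The comparison of IAA with DMSO asks how acute removal of JUN protein bears on new and total mRNA. In this degron system JUN is removed as a protein, so that JUN mRNA does not check the depletion. JUN itself had 45.0 to 57.6 CPM without 4sU, 20.3 to 30.2 CPM with DMSO and 4sU, and 62.9 CPM in the IAA library. Whether these reads came from the locus or the vector was not tested. The rate was compared after centring each library on its median, since without centring the median gene of the IAA library lay 0.154 above the mean of the 3 DMSO libraries on the log2 scale. A gene was counted as called when the IAA library lay at least 1 log2 unit from that mean and outside the range of the 3 DMSO libraries.

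In the conversion rate, 1 of the 9 genes was called, ITGB1, whereas 21.4% of all 11762 genes were. The ITGB1 rate was 0.0410% in the IAA library, from 451 reads, against 0.120% to 0.174% with DMSO and 4sU, and it lay within the range of the libraries without 4sU (0.0341% to 0.0658%). With intervals averaged the difference was -1.11, and replicate 1 of DMSO with 4sU lay 0.68 below the other 2 libraries. The call was lost without centring (-0.96), with a pseudocount of 0.002 (-0.50) and without DMSO replicate 3 (-0.98).
With intervals averaged, the other 8 genes lay within 0.44 of the DMSO mean. LAMB3 had 0.851% in the IAA library, inside its DMSO range of 0.741% to 1.10% before centring. After centring it lay outside that range and differed by -0.24, while single DMSO libraries differed from the other 2 by -0.25 to 0.23. LAMA3 had 0.145%, inside its DMSO range of 0.105% to 0.178% before centring. After centring it lay outside the range with intervals averaged (-0.12, with -0.10 to 0.20 between DMSO libraries) and inside it with the interval with most reads (-0.11, with -0.24 to 0.20).
COL17A1 had 0.107% in the IAA library, above the 3 DMSO libraries (0.0559% to 0.0695%) and above the 3 libraries without 4sU (0.0326% to 0.0798%). ITGB4 had 0.245%, above its DMSO range of 0.154% to 0.224%. These 2 genes were the ones with a higher rate in the IAA library after centring, by 0.31 and 0.20, with SDs of 0.17 and 0.07 between the DMSO libraries, and without centring LAMA3 (0.03) and ITGB6 (0.13) were also above the DMSO mean. ITGA2 had 0.127%, just below its lowest DMSO library (0.129%), and differed by -0.44. ITGA6 (0.0966%, difference -0.27), ITGA3 (0.334%, -0.23) and ITGB6 (0.0977%, -0.02) lay inside their uncentred DMSO ranges. After centring, 8 of the 9 genes lay outside the range of the 3 DMSO libraries, as did 49.4% of all genes.

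In total mRNA, 0 of the 9 genes were called, against 0.209% of 11474 genes. Differences ran from -0.42 for COL17A1 (84.8 CPM in the IAA library) to 0.46 for ITGA3 (97.6 CPM). These differences and ranges are with intervals summed, whereas CPM are from the interval with most reads. Outside the DMSO range lay 4 of the 9 genes, COL17A1, ITGB4 (-0.12), ITGB1 (0.38) and ITGB6 (0.13), where 41.3% of all genes did. ITGB1 thus had more reads in the IAA library than in each DMSO library (22.5 CPM against 14.7 to 19.1) while its rate was lower. LAMA3 (286 CPM, difference -0.22), LAMB3 (1303 CPM, 0.21), ITGA6 (275 CPM, -0.17) and ITGA2 (315 CPM, 0.12) lay inside the range of the DMSO libraries after scaling. With the interval with most reads, ITGA6 differed by -0.18 and lay outside that range. In that setting 5 of the 9 genes lay outside it, where 41.3% of all genes did.

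**Figure D4:**
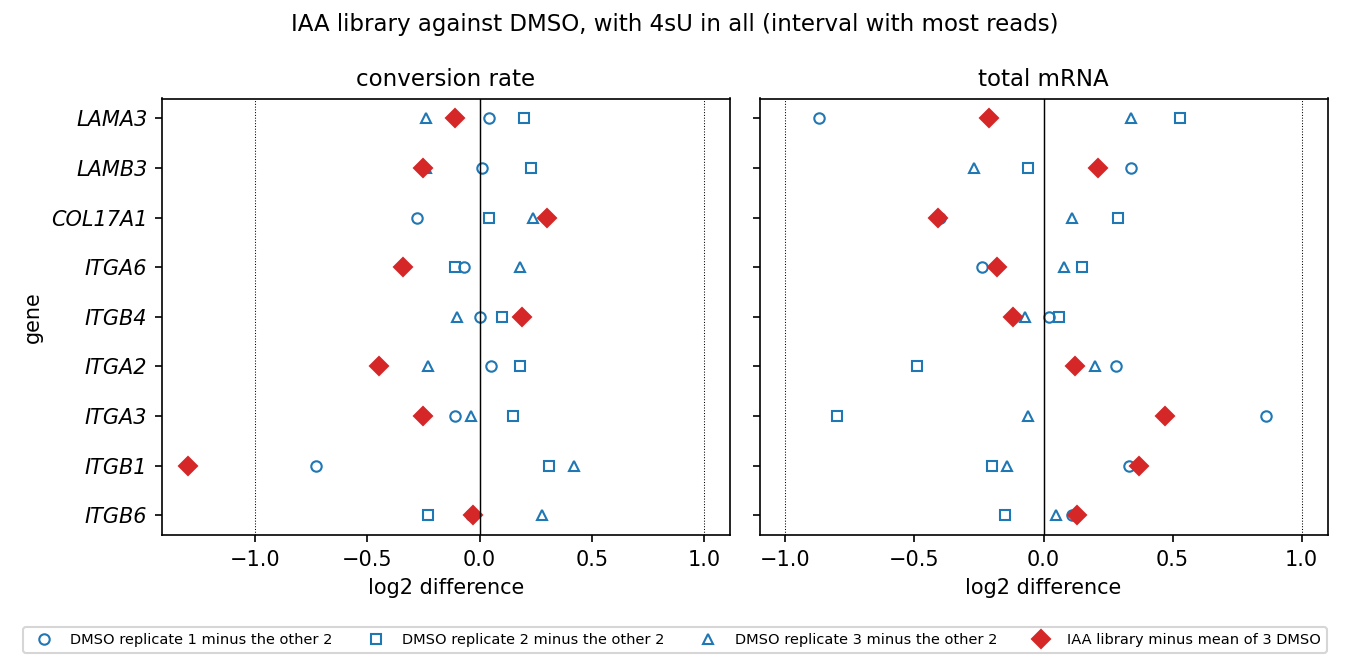
Log2 difference (x axis) of the IAA library from the mean of the 3 DMSO libraries (red diamonds) for each of the 9 genes, all with 4sU, in the conversion rate centred on library medians (left) and in total mRNA (right). Blue open symbols give each DMSO library minus the other 2, dotted lines mark 1 log2 unit, and values are from the interval with most reads. ITGB1 in the conversion rate, at -1.30, is the one diamond beyond a dotted line.

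Genes around the 9 differed in how much label they carried, with rates averaged over intervals as in the first test. Of the 6 hemidesmosome partners, 5 rose with 4sU, where 48.6% of all genes did, with a median log2 difference of 1.52 against 1.27 over all genes. They were PLEC (plectin, which links the hemidesmosome to keratins, 1.88 with adjusted p = 0.00327), DST (the bullous pemphigoid antigen, 1.70, adjusted p = 0.018), ERBIN (a binding partner of integrin β4, 1.61, adjusted p = 0.011), CD151 (a tetraspanin bound to laminin-binding integrins, 1.43, adjusted p = 0.0225) and the basal keratin KRT5 (0.79, adjusted p = 0.0403; all limma). With the interval with most reads, DST did not pass (0.81, adjusted p = 0.0989), which left 4 of 6, where 50.5% of all genes passed. The median log2 difference of the 6 partners was then 1.18, below the median over all genes with that interval. Their higher median thus held only with intervals averaged.
Of 15 other laminin and basement membrane genes, 13 were tested and 2 rose, a smaller share than the 48.6% of all genes, LAMC1 (1.01, adjusted p = 0.015) and COL4A1 (5.84, adjusted p = 0.00123, limma). Only LAMC1 passed with the interval with most reads, where COL4A1 differed by 0.64 (adjusted p = 0.223).
Of 18 other integrin subunits, 9 were tested and 2 rose, against 48.6% of all genes, ITGA5, the α5 subunit of the fibronectin receptor (1.5, adjusted p = 0.0092), and ITGB8, the β8 subunit (1.33, adjusted p = 0.0239, limma). Of 23 focal adhesion adaptors and kinases, 22 were tested and 15 rose, also to be read against 48.6%, with a median of 1.20. The largest differences were those of SRC (2.49, adjusted p = 0.00625), BCAR1 (2.42, adjusted p = 0.00603), TNS3 (1.96, adjusted p = 0.0202) and FERMT2 (1.84, adjusted p = 0.0366, limma). In total mRNA, 0 genes of these 4 lists passed. In the IAA library, the rate met the call rule in 1 of 13 basement membrane genes (HSPG2), 0 of 6 hemidesmosome partners, 1 of 8 integrin subunits (ITGB2) and 1 of 22 focal adhesion genes (SHARPIN), against 21.4% of all genes, and in total mRNA 0 genes of the 4 lists met it.

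Epithelial markers were present, though KRT14 was low (3.63 to 10.6 CPM), and those of other cells were low or at 0. KRT5 had the most reads of the epithelial markers (519 to 709 CPM). The 8 epithelial markers summed to 1050 to 1400 CPM, 5 fibroblast markers to 9.0 to 14.4 CPM, 5 immune markers to 1.68 to 7.93 CPM and 4 endothelial markers to 0.223 to 1.36 CPM, with COL1A2, PTPRC, CD3E, MS4A1, CDH5 and VWF at 0 in every library. Of the epithelial markers, 3 of 8 rose in the conversion rate with 4sU, against 48.6% of all genes, namely KRT18 (2.04, adjusted p = 0.0071), KRT17 (1.01, adjusted p = 0.0272) and KRT5 (limma). Of the 3 fibroblast and immune markers tested, CD68 did. It had few reads (1.68 to 7.93 CPM), with rates of 0.0483%, 0% and 0% without 4sU, so its call is uncertain.

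Across the 7 libraries, the mean of the 9 genes' centred log2(CPM + 1) ran from -0.131 to 0.079. The 5 other genes of 5102 with a mean of at least 20 CPM whose pattern was most like it were SELENOK (Pearson r = 0.972), EEF1A1 (0.965), ADAR (0.959), WDR1 (0.947) and CAPN2 (0.946). These values are over 7 libraries that share replicate numbers, and the r is a description.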

How the data were processed

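SLAM-Seq 3′ end libraries of MCF10A JUN-AID-V5 cells were processed by the authors with a Nextflow SLAM-Seq pipeline, and the build per the labels is hg19. The deposited table gives, for each RefSeq 3′ interval, the T>C conversion rate as a fraction of T positions, without background subtraction, and the deposited signal called CPM, reads scaled to the library total, in which intervals that overlap repeat reads. Coverage on T positions is not given, so a single rate has no counting interval. CPM were whole multiples of 1 read (within 0.01 reads) in 100% of non-zero values, which gave the reads. All columns were used (0 left out). RefSeq identifiers were matched to symbols through a GRCh38.p14 table, in 97.71% of rows. Equal rows of a gene were used once, and the 35 rows of the 9 genes held 17 distinct intervals, 5 of them under 10 CPM in every library.

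The 3 libraries with DMSO and 4sU were compared with the 3 without 4sU by limma (3.58.1, R 4.3.3; trended, robust variances) on log2(rate + 0.0005), intervals averaged, keeping genes whose rate exceeded 0 in 3 or more of the 6 libraries, and on log2(CPM + 1) after TMM scaling, intervals summed, for genes with at least 1 CPM in 3 libraries, at a Benjamini-Hochberg adjusted p of 0.05. Averaging takes in nearly empty intervals and summing counts nested intervals more than once, so library values are shown for the interval with most reads and its test is given too. edgeR (4.0.16) and DESeq2 (1.42.0) on recovered reads were alternatives. The fits were tested on simulated data, where the rate test made false calls among genes with few reads, and a minimum of 200 reads was one of the alternatives. IAA against DMSO had no test. Replicate numbers pair the libraries in total mRNA (correlations of deviations 0.392, 0.316 and 0.364) and not in the rates (0.00427, -0.00188 and -0.0313).

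The 9 genes and the gene lists were chosen with earlier results of these data known, and one further gene of a list is not reported here. All 9 genes are named in each comparison, and of each other list those past the threshold, at most the 4 with the largest log2 difference. The fifth hemidesmosome partner, KRT14 and the marker genes at 0 go beyond it and were named after their values were seen. Python 3.11.15 was used with pandas 2.3.3.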

Additional observations from a re-analysis of the deposited data

How the results depend on the processing

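Counts of called genes among the 9 depended on the setting in the conversion rate and not in total mRNA. With 4sU, 3 of the 9 rose in the rate, where 5299 of all 10895 genes did. It was 5 of the 9 with a rate above 0 in all 6 libraries, with at least 200 reads, with the interval with most reads, with that interval and at least 200 reads (chosen after seeing the data) and with the read-weighted mean. In these settings 4562 of 7118, 4520 of 7364, 5476 of 10853, 4633 of 7001 and 5581 of 10895 genes rose, in the same order. With no filter on the rate, 2 of the 9 and 3940 of 17273 genes rose, in place of 5299 of 10895, and ITGB1 no longer passed (adjusted p = 0.162, limma). Leaving out replicate 1, 2 or 3 of both groups gave 1 of the 9 each time. Of all genes, 2243 of 11004, 2782 of 11152 and 2639 of 11130 then rose. The replicate block gave 2 of the 9 and 4228 of 10895 genes in the rate, where the numbers do not pair the libraries, and 0 of the 9 and 258 of 11528 genes in total mRNA. Among the 9 genes, the block ended the call of ITGB1 in the rate and changed no other call. All genes with changed total mRNA numbered 208 of 11528, 416 of 11528 with DESeq2, 76 of 7227 at a mean of at least 10 CPM, and 26 of 11605 to 423 of 11540 without one replicate. Leaving out 1 replicate, the total mRNA difference ran from -0.41 to 0.01 for LAMA3, from -0.05 to 0.11 for ITGA2 and from -0.33 to 0.32 for ITGB1, with the sign opposite to that of all replicates in each gene without replicate 1.

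For IAA against DMSO, 1 of the 9 was called in the rate, and 2522 of 11762 genes. Without centring it was 0 of the 9 and 2277 genes, and with a pseudocount of 0.002 it was 0 of the 9 and 1507 genes. Leaving out 1 DMSO library gave 0 to 1 of the 9 and 2947 to 3182 of the 11762 genes. In total mRNA, 24 of 11474 genes were called, 74 with a pseudocount of 0.25 and 15 to 112 without one DMSO library, and 0 of the 9 in each of these settings. The cause of these differences was not tested. No paired analysis was possible because the IAA group is 1 library. Of the single-gene values, 90 of 108 in the rate with 4sU and 105 of 108 in total mRNA kept their direction and their side of the threshold. Depth limits ITGB1 most, with 197 to 772 reads.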
